A study of Mus musculus with 4 samples.

Results

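The genes described here are 10 of the 29924 gene names on the array, chosen as receptors (*Notch1*, *Notch2*, *Notch3*), ligands (*Jag1*, *Jag2*, *Dll1*) and transcriptional targets (*Hes1*, *Hey1*, *Hey2*, *Heyl*) of the Notch pathway. Their 13 probes were found by gene name, and the list was put together with earlier results of these data known. Of the 10 genes, 9 passed the filter on dim probes, which asked for a signal well above background in both pools of some group, and were tested. *Hey2* did not pass.

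Ureters of newborn (P0) NMRI mice were cultured for 8 d with 2 µM purmorphamine, an agonist of SHH signaling, or with the vehicle DMSO. The *Pparg-cKO* ureters had the genotype Pax2-cre/+; Pparg (fl/fl), and the control ureters had the genotype Pparg (fl/?) and came from littermates without cre. All groups thus carry a floxed allele, and cre is present in the mutants only, where *Pax2-cre* recombines in the epithelium of the ureter. RNA came from sex-sorted pools, and each of the 4 two-color arrays compared a treated with an untreated pool of the same genotype and sex.

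The 4 groups had 2 pools each, a male pool (replicate 1) and a female pool (replicate 2). In male arrays DMSO was labeled with AlexaFluor555 and purmorphamine with AlexaFluor647, and in female arrays the dyes were exchanged, so that sex, dye and replicate number cannot be told apart among pools of the same treatment. The number of ureters in a pool is not given in the sources used here, and p-values measure the spread between these pools. Between 66.3% and 70.5% of the spots of a channel were well above background, and 0 spots were saturated. The *Pparg* probe starts at base 1562 of the transcript, downstream of the floxed exons, and lay at log2 levels of 14.79 to 15.31 in control pools and 15.55 to 16.10 in mutant pools. It therefore does not check the deletion. All 8 smooth muscle markers and all 4 basal and 6 superficial urothelial markers of the lists used here were above background in at least 1 group. As a check of the treatment, *Ptch1*, a receptor and target of SHH signaling, rose by a log2 fold change of 1.00 (SE 0.12, limma, adjusted p = 0.043) in control ureters and of 1.62 (SE 0.12, adjusted p = 0.014) in *Pparg-cKO* ureters. *Hhip*, another target, rose in *Pparg-cKO* ureters (2.19, SE 0.20, adjusted p = 0.016), and its value in control ureters was 1.33 (SE 0.20, adjusted p = 0.062). *Gli1*, a transcription factor and target of the pathway, had values of 1.06 (adjusted p = 0.11) and 1.34 (adjusted p = 0.052).

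Notch signaling acts between cells in contact. A ligand of the Jagged or Delta-like family on one cell binds a Notch receptor on its neighbor, the receptor is cut, and its intracellular domain enters the nucleus, where it joins the DNA-binding protein RBPJ and switches on target genes. The *Hes* and *Hey* genes are the classical targets and encode transcriptional repressors. NOTCH3, HEY1 and HEYL are well known from smooth muscle cells and pericytes, and HEY1 and HEY2 from the endothelium.

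With purmorphamine over DMSO, *Heyl* rose in both genotypes and *Hey1* in *Pparg-cKO* ureters. Between the genotypes under purmorphamine, *Pparg-cKO* ureters had more *Hey1* and less *Dll1*. These were the calls among the 10 genes. The table of promoters (RefSeq, build GRCm38.p6, 250 bases before to 50 bases after each start) held 8 promoters of 7 of the 10 genes, among them *Dll1* with 2. These were searched on both strands for the core of the RBPJ site (TGGGAA, reverse complement TTCCCA), the E-box bound by HES and HEY proteins (CACGTG) and the core of the GLI site (ACCACCC). The shares of all 32851 promoters with a match were 25.6%, 7.15% and 4.61%. *Hes1*, *Hey1* and *Heyl* had no entry among these promoters and were not searched. *Hey2* was the only 1 of the 7 genes with a match, and it had the RBPJ core 2 times. The 2 windows of 30 bases are shown because they are the only matches among these genes. Capitals mark the core, and both are read on the strand of the gene.

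*Hey2*, chr10:30842973-30843002, minus strand, core at base -207 from the start and on the opposite strand: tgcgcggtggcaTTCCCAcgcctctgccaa

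*Hey2*, chr10:30842769-30842798, minus strand, core at base -3 from the start and on the gene's strand: tgggctgcagcgTGGGAAagaacctccagg

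A match describes these letters and is no evidence of a bound site, and the 2 cores lie in the gene of the list that was not measured well. Of *Notch1* and *Notch2*, 2 probes each were tested, and the first 30 bases of the second, dimmer probe of each are shown because its values differed from those of the brighter one, as described with the receptors.

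*Notch1*, chr2:26319440-26319499 (mm9, minus strand), probe of 60 bases from base 5898 of the transcript: tcctgcagtggagggggccttgagacaggc

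*Notch2*, chr3:97951233-97951292 (mm9, plus strand), probe of 60 bases from base 7448 of the transcript: tcttcaccacactctgcatctgactggtca

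All levels below are log2 intensities of the brightest probe of a gene after normalization, and differences are log2 fold changes. A gene is called changed at a Benjamini-Hochberg adjusted p under 0.05 over all 20229 genes tested with limma. Since a probe's brightness depends on its sequence, a level is compared with levels of the same gene only.

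**Figure D1:**
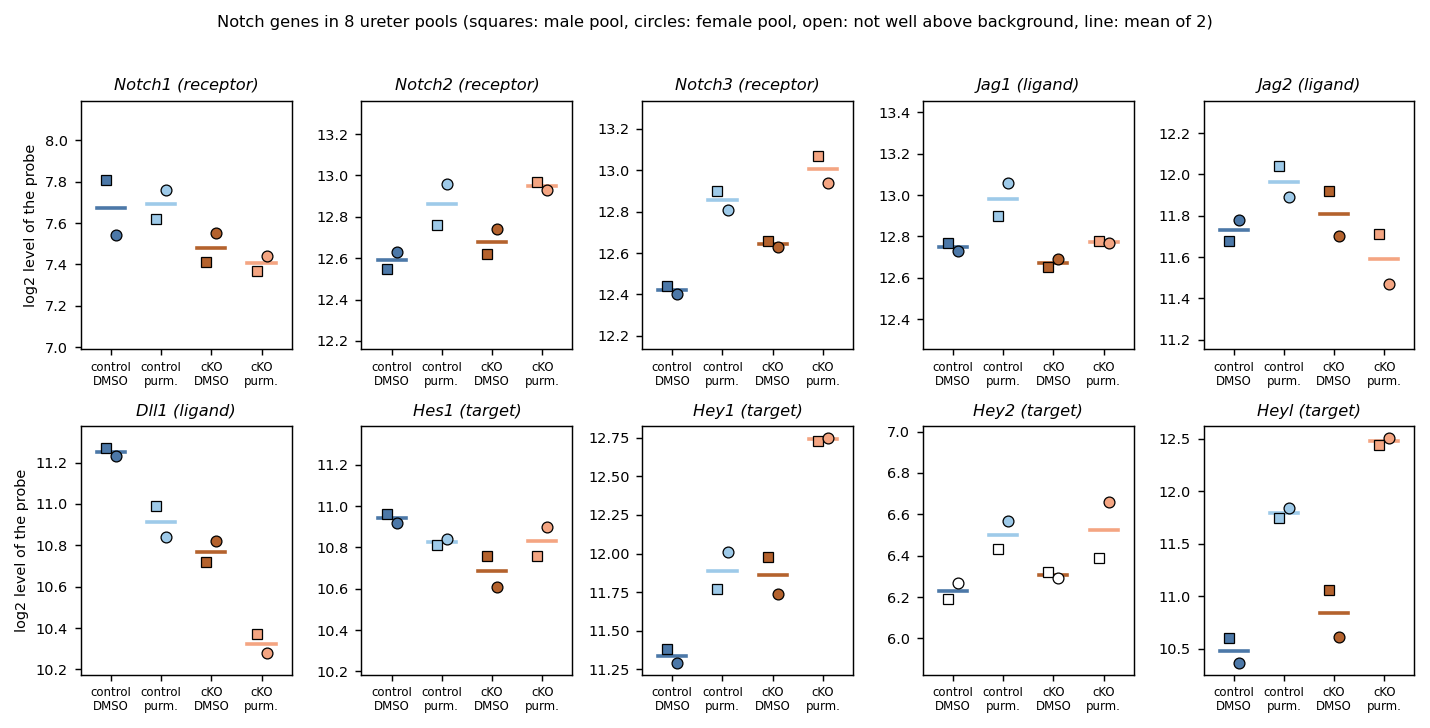
Log2 level of the probe of each Notch gene (y axis, each panel with its own range) in the 4 groups of ureter pools (x axis), with squares for male pools, circles for female pools, open symbols for values not well above background and lines for the mean of 2 pools. For *Hey1* and *Heyl* both *Pparg-cKO* pools with purmorphamine sit above all other pools, and for *Dll1* they sit below all others.

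The receptors showed no called change. *Notch3*, the receptor known from vascular smooth muscle, lay at 12.44 in the male and 12.40 in the female control pool with DMSO and at 12.90 and 12.81 with purmorphamine. In *Pparg-cKO* ureters it lay at 12.66 and 12.63 with DMSO and at 13.07 and 12.94 with purmorphamine. The 4 groups did not overlap, and they rose in the order control with DMSO, *Pparg-cKO* with DMSO, control with purmorphamine and *Pparg-cKO* with purmorphamine. The treated genotypes were 0.04 apart at their nearest pools. With 2 pools per group, this order is a description and no test. The log2 fold change with purmorphamine was 0.43 (SE 0.10, limma, adjusted p = 0.11) in control and 0.36 (SE 0.10, adjusted p = 0.12) in *Pparg-cKO* ureters. Between the genotypes it was 0.23 (adjusted p = 0.30) with DMSO and 0.15 (adjusted p = 0.53) with purmorphamine. None of these passed the test.

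*Notch2*, a broadly expressed receptor, lay at 12.55 and 12.63 in control pools with DMSO and at 12.76 and 12.96 with purmorphamine. The *Pparg-cKO* pools lay at 12.62 and 12.74 with DMSO and at 12.97 and 12.93 with purmorphamine. Each of the 4 purmorphamine pools was thus above each of the 4 DMSO pools, while the genotypes overlapped. The log2 fold change was 0.27 (SE 0.11) in both genotypes, with an adjusted p from limma of 0.27 in control and 0.24 in *Pparg-cKO* ureters. The second *Notch2* probe gave -0.05 (SE 0.10) in control and 0.11 (SE 0.10) in *Pparg-cKO* ureters, but this probe was dim, at 6.57 to 6.78, and well above background in 7 of 8 pools, so that no direction is read from it.

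*Notch1*, the receptor best known from lineage decisions, lay at 7.81 and 7.54 in control pools with DMSO and at 7.62 and 7.76 with purmorphamine. In *Pparg-cKO* pools it lay at 7.41 and 7.55 with DMSO and at 7.37 and 7.44 with purmorphamine. The genotypes overlapped with DMSO and not with purmorphamine, where the log2 fold change of *Pparg-cKO* over control was -0.29 (SE 0.12, limma, adjusted p = 0.33). The second probe gave 0.02 (SE 0.09) for the same comparison. With purmorphamine in control ureters the brighter probe gave 0.01 and the second -0.21, and the second probe was dim, at 6.61 to 6.90. The brighter probe was itself dim, at 7.37 to 7.81, though well above background in every pool. Its scaled processed signals were 38.33 to 54.79, under the intensity of 100 in the rule of the study's methods.

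Among the ligands, *Dll1* was the one with a called change. *Dll1* encodes a Delta-like ligand. It lay at 11.27 and 11.23 in control pools with DMSO, at 10.99 and 10.84 in control pools with purmorphamine, at 10.72 and 10.82 in *Pparg-cKO* pools with DMSO and at 10.37 and 10.28 in *Pparg-cKO* pools with purmorphamine. The groups did not overlap, with the highest level in untreated controls and the lowest in treated mutants. The neighbors in the middle, treated controls and untreated mutants, were 0.02 apart at their nearest pools. Under purmorphamine, *Dll1* fell in *Pparg-cKO* relative to control ureters by 0.59 on the log2 scale (SE 0.10, limma, adjusted p = 0.034), with -0.62 between the male and -0.56 between the female pools. This equals 0.665 times the control level. The same comparison with DMSO gave -0.48 (SE 0.10, adjusted p = 0.053), with -0.55 and -0.40, and was not called. The values for purmorphamine over DMSO were -0.33 (SE 0.11, adjusted p = 0.20) in control and -0.44 (SE 0.11, adjusted p = 0.097) in *Pparg-cKO* ureters. The difference of these 2 effects was -0.11 (SE 0.16, limma, unadjusted p = 0.51). The genotype difference of *Dll1* was thus not shown to depend on purmorphamine. Without any 1 of the 4 arrays the called value was between -0.66 and -0.51 and not called, with -0.51 (adjusted p = 0.18) without control replicate 1, -0.66 (0.16) without control replicate 2, -0.64 (0.25) without *Pparg-cKO* replicate 1 and -0.54 (0.24) without *Pparg-cKO* replicate 2. The call was also lost with the replicate number (-0.59, adjusted p = 0.12) or dye (-0.59, adjusted p = 0.11) as a term. It was not called with the processed signals either (-0.57, adjusted p = 0.061). The second *Dll1* probe, of another transcript, was well above background in 0 of 8 pools.

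*Jag1*, a ligand with a known role in smooth muscle next to the endothelium, lay at 12.77 and 12.73 in control pools with DMSO and at 12.90 and 13.06 with purmorphamine. In *Pparg-cKO* pools it lay at 12.65 and 12.69 with DMSO and at 12.78 and 12.77 with purmorphamine. Within each genotype both treated pools were above both untreated ones, with log2 fold changes of 0.23 (SE 0.11, limma, adjusted p = 0.33) and 0.11 (SE 0.11, adjusted p = 0.67). The values for *Pparg-cKO* over control were -0.08 with DMSO (adjusted p = 0.79) and -0.20 with purmorphamine (adjusted p = 0.37). *Jag1* therefore stayed within 0.41 log2 units over the 8 pools.

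*Jag2*, the other Jagged ligand, lay at 11.68 and 11.78 in control pools with DMSO and at 12.04 and 11.89 with purmorphamine. In *Pparg-cKO* pools it lay at 11.92 and 11.70 with DMSO and at 11.71 and 11.47 with purmorphamine. The treated pool was the higher one on both control arrays and the lower one on both *Pparg-cKO* arrays. The log2 fold changes with purmorphamine were 0.24 (SE 0.11, limma, adjusted p = 0.33) in control and -0.23 (SE 0.11, adjusted p = 0.33) in *Pparg-cKO* ureters. Their difference was -0.47 (SE 0.16, adjusted p = 1). Under purmorphamine *Pparg-cKO* was below control by a log2 fold change of -0.38 (SE 0.13, limma, adjusted p = 0.20), without overlap of the pools.

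Of the 9 tested genes, the targets *Heyl* and *Hey1* held the largest changes. The target *Hes1* had the smallest range over the 8 pools, at 0.35 log2 units. *Heyl* encodes a HEY family repressor. It lay at 10.60 and 10.36 in control pools with DMSO and at 11.74 and 11.84 with purmorphamine, and in *Pparg-cKO* pools at 11.06 and 10.61 with DMSO and at 12.44 and 12.51 with purmorphamine. Treated pools were above all untreated pools, and treated mutants were above treated controls. The untreated genotypes came within 0.01 of each other at their nearest pools. With purmorphamine *Heyl* rose by a log2 fold change of 1.31 (SE 0.17, limma, adjusted p = 0.046) in control ureters, with 1.14 for the male and 1.47 for the female pools, which is 2.47-fold. It rose by 1.65 (SE 0.17, adjusted p = 0.019) in *Pparg-cKO* ureters, with 1.39 and 1.91, which is 3.13-fold. The difference of these 2 effects was 0.34 (SE 0.24, adjusted p = 1). For *Pparg-cKO* over control the values were 0.69 (SE 0.17, limma, adjusted p = 0.091) with purmorphamine and 0.35 (SE 0.17, adjusted p = 0.39) with DMSO, and neither was called. The call in control ureters was lost without control replicate 1 (1.47, adjusted p = 0.12), without control replicate 2 (1.14, adjusted p = 0.12) and without the filter on dim probes (1.31, adjusted p = 0.098), and that in *Pparg-cKO* ureters without *Pparg-cKO* replicate 2 (1.39, adjusted p = 0.059). With the processed signals, where limma called 0 genes of the array for purmorphamine in either genotype, the values were 1.37 (adjusted p = 0.16) and 1.70 (adjusted p = 0.11).

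*Hey1* encodes another repressor of this family. It lay at 11.38 and 11.29 in control pools with DMSO and at 11.77 and 12.01 with purmorphamine, and in *Pparg-cKO* pools at 11.98 and 11.74 with DMSO and at 12.73 and 12.75 with purmorphamine. Untreated controls were the lowest and treated mutants the highest, while treated controls and untreated mutants overlapped. With purmorphamine *Hey1* rose in *Pparg-cKO* ureters by a log2 fold change of 0.88 (SE 0.13, limma, adjusted p = 0.037), with 0.75 and 1.00 on the 2 arrays, which is 1.84-fold. In control ureters the value was 0.55 (SE 0.13, adjusted p = 0.13), with 0.39 and 0.72. The difference of the 2 effects was 0.33 (SE 0.19, adjusted p = 1), so that the effects of purmorphamine in the genotypes were not shown to differ. Under purmorphamine *Hey1* was higher in *Pparg-cKO* than in control ureters by 0.85 (SE 0.13, adjusted p = 0.022), with 0.96 between the male and 0.74 between the female pools, which is 1.80-fold. With DMSO this value was 0.52 (SE 0.13, adjusted p = 0.082), with 0.60 and 0.45. The treatment call was lost without *Pparg-cKO* replicate 1 (1.00, adjusted p = 0.065), without *Pparg-cKO* replicate 2 (0.75, adjusted p = 0.29) and without the filter on dim probes (0.88, adjusted p = 0.07). The genotype call was lost without control replicate 1 (0.72, adjusted p = 0.15), control replicate 2 (0.97, 0.14), *Pparg-cKO* replicate 1 (0.86, 0.16) or *Pparg-cKO* replicate 2 (0.84, 0.11), and without normalization between arrays (0.67, adjusted p = 0.051). It was also lost with the replicate number (0.85, adjusted p = 0.10) or dye (0.85, adjusted p = 0.059) as a term. With the processed signals the values were 0.91 (adjusted p = 0.12) for the treatment and 0.89 (adjusted p = 0.051) for the genotype.

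*Hes1*, the general target of Notch signaling in many tissues, lay at 10.96 and 10.92 in control pools with DMSO and at 10.81 and 10.84 with purmorphamine. In *Pparg-cKO* pools it lay at 10.76 and 10.61 with DMSO and at 10.76 and 10.90 with purmorphamine. Untreated controls were the highest, and the values of treated *Pparg-cKO* pools reached from the level of untreated *Pparg-cKO* pools to above that of treated controls. The log2 fold change of *Pparg-cKO* over control with DMSO was -0.26 (SE 0.10, limma, adjusted p = 0.27) and with purmorphamine 0.00 (SE 0.10, adjusted p = 0.99). With purmorphamine over DMSO it was -0.12 (SE 0.12, adjusted p = 0.68) in control and 0.14 (SE 0.12, adjusted p = 0.58) in *Pparg-cKO* ureters. *Hes1* thus had no called change in any comparison.

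*Hey2*, the third member of the HEY family, was near background. Its probe was well above background in 2 of 8 pools, the female purmorphamine pool of each genotype, and both of these carried AlexaFluor555. The values were 6.19 and 6.27 in control pools with DMSO and 6.43 and 6.57 with purmorphamine, and 6.32 and 6.29 against 6.39 and 6.66 in *Pparg-cKO* pools. The scaled processed signal of *Hey2* was at the floor of 15 in all 8 pools. No fold change and no test are given. At these intensities it cannot be told whether *Hey2* changed by as much as *Hey1* or *Heyl*.

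**Figure D2:**
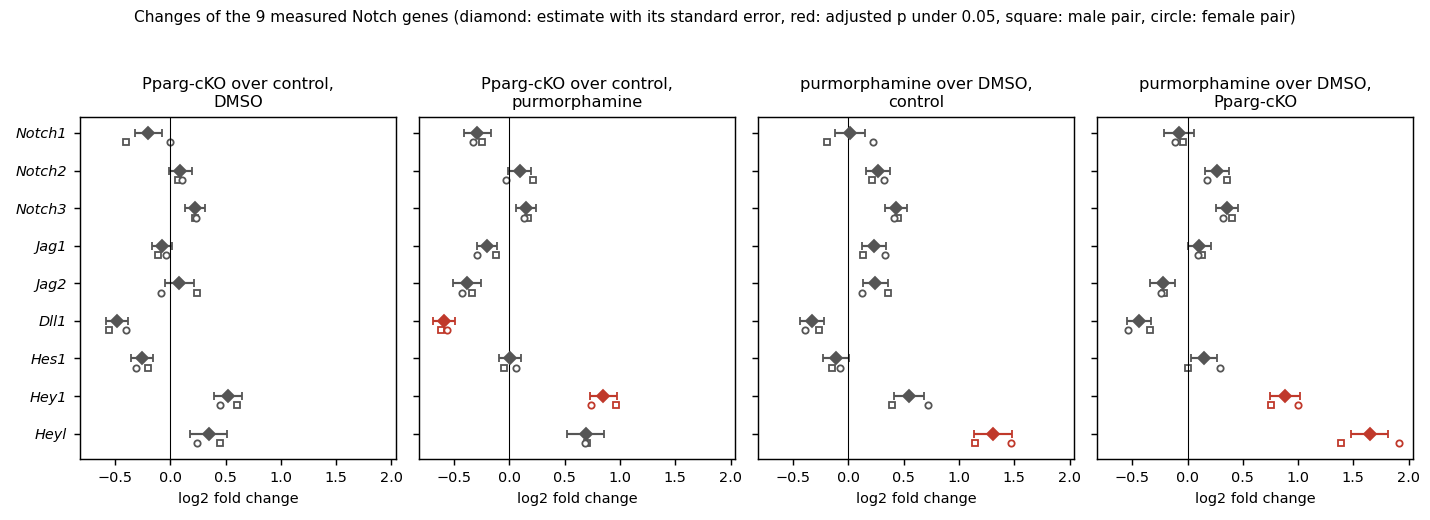
Log2 fold changes (x axis) of the 9 tested Notch genes (y axis) in 4 comparisons, with diamonds and bars for the limma estimate and its standard error, small squares for the male and small circles for the female pair, and red for an adjusted p under 0.05. The red values are *Dll1* (-0.59) and *Hey1* (0.85) between the genotypes with purmorphamine, *Heyl* (1.31) in control ureters and *Hey1* (0.88) and *Heyl* (1.65) in *Pparg-cKO* ureters.

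Counted over the list, 0 of the 9 tested genes were called between the genotypes with DMSO, where 3.90% of all genes were called by limma. At an unadjusted p under 0.05, *Hey1* and *Notch3* were higher and *Dll1* and *Hes1* lower there, against 15.8% of all genes in either direction. With purmorphamine 1 gene was called higher (*Hey1*) and 1 lower (*Dll1*), against 3.14% of all genes. For purmorphamine over DMSO, 1 of 9 was called in control ureters (*Heyl*) against 1.52% of all genes, and 2 of 9 in *Pparg-cKO* ureters (*Hey1* and *Heyl*) against 5.12%. For the difference of the purmorphamine effects between the genotypes, 0 of 9 and 0% of all genes were called by limma, and *Jag2* alone had an unadjusted p under 0.05, as 3.31% of all genes did. The medians of the 9 log2 fold changes were 0.08 and 0.00 between the genotypes with DMSO and purmorphamine, where those of all genes were 0.00 and 0.00. They were 0.24 in control and 0.14 in *Pparg-cKO* ureters for purmorphamine over DMSO, where those of all genes were 0.02 and 0.00. The comparisons share pools, since the DMSO and purmorphamine pools enter both the genotype and the treatment comparisons, and are not independent of each other.

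The rule of the study's methods asks for an intensity above 100 and a fold change of 1.5 or more, in either direction but alike in both replicate pairs, and carries no test. Applied to all genes on the array it was passed by 2.84% of them between the genotypes with DMSO, 3.21% with purmorphamine, 3.30% for purmorphamine in control and 4.46% in *Pparg-cKO* ureters. Of the 10 Notch genes, 0 passed between the genotypes with DMSO. *Hey1* and *Heyl* passed as higher between the genotypes with purmorphamine and for purmorphamine in *Pparg-cKO* ureters, and *Heyl* passed in control ureters. *Dll1* did not pass in any comparison. Its scaled signals were 739 and 665 in treated control pools and 494 and 450 in treated *Pparg-cKO* pools.

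Of 46 other genes of the pathway, 45 were on the array and 43 were tested. *Dner*, a non-canonical ligand with a known role in the nervous system, rose most with purmorphamine. It lay at 8.18 and 9.15 in control pools with DMSO and at 10.45 and 11.39 with purmorphamine, and in *Pparg-cKO* pools at 8.56 and 8.91 against 10.82 and 11.69. Every treated pool was above every untreated pool, and the female treated pools were the highest of each genotype. The log2 fold change was 2.25 (SE 0.15, limma, adjusted p = 0.019) in control and 2.52 (SE 0.15, adjusted p = 0.011) in *Pparg-cKO* ureters. Between the genotypes *Dner* had values of 0.07 (adjusted p = 0.97) with DMSO and 0.34 (adjusted p = 0.82) with purmorphamine.

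*Dll3*, a divergent ligand that does not activate receptors on neighboring cells, was the pathway gene called between the genotypes with DMSO. It lay at 7.26 and 7.10 in control and at 7.86 and 7.83 in *Pparg-cKO* pools with DMSO. This was a rise by a log2 fold change of 0.66 (SE 0.10, limma, adjusted p = 0.015). With purmorphamine the pools lay at 7.18 and 7.27 against 7.63 and 7.68, with a log2 fold change of 0.43 (SE 0.10, adjusted p = 0.071). All *Pparg-cKO* pools were above all control pools. The *Dll3* probe was dim, at 7.10 to 7.86, though well above background in every pool.

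*Neurl1a*, a ubiquitin ligase of the Neuralized family that acts on Notch ligands, lay at 11.92 and 11.73 in treated control and at 12.36 and 12.36 in treated *Pparg-cKO* pools. It was called higher in *Pparg-cKO* ureters under purmorphamine (0.53, SE 0.10, limma, adjusted p rounded to 0.05). With purmorphamine it rose in *Pparg-cKO* ureters by 0.61 (SE 0.10, adjusted p = 0.046) from 11.82 and 11.69 with DMSO. In control ureters the value was 0.24 (SE 0.10, adjusted p = 0.29).

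Of the 43 genes, 1 was thus called higher in each of the 2 genotype comparisons and in control ureters with purmorphamine, 2 were called higher in *Pparg-cKO* ureters with purmorphamine, and 0 were called lower in any of these. In the order of the genotypes with DMSO and with purmorphamine and of treated control and treated *Pparg-cKO* ureters, these are 2.33%, 2.33%, 2.33% and 4.65% of the 43, against 3.90%, 3.14%, 1.52% and 5.12% of all genes. At an unadjusted p under 0.05, 5 were higher and 0 lower, 4 and 1, 6 and 2, and 6 and 1. These are 11.6%, 11.6%, 18.6% and 16.3% of the 43, against 15.8%, 15.6%, 19.6% and 22.2% of all genes. Leaving out arrays reduced some of these counts to 0, which held for the genotypes with DMSO without control replicate 1, control replicate 2, *Pparg-cKO* replicate 1 or *Pparg-cKO* replicate 2, for the genotypes with purmorphamine without control replicate 1, control replicate 2 or *Pparg-cKO* replicate 1, and for treated control ureters without control replicate 1 or control replicate 2. No pathway gene was called for the difference of the purmorphamine effects, and 1 had an unadjusted p under 0.05. This was *Nrarp*, a target and inhibitor of the pathway, with the largest value (-0.49, SE 0.16, limma, adjusted p = 1), before *Neurl1a* (0.36, adjusted p = 1) and *Lfng* (-0.33, adjusted p = 1), which encodes a glycosyltransferase of the receptors. The medians of the 43 log2 fold changes lay between 0.02 and 0.09 in the genotype and treatment comparisons. *Rbpj*, through which all receptors act, had values of -0.02 and 0.01 between the genotypes and of 0.20 and 0.22 with purmorphamine, with adjusted p from limma of 0.34 or more. By the rule of the methods, *Dlk1* passed as lower between the genotypes with DMSO, *Dll4* and another probe of *Rbpj* as higher with purmorphamine, *Dner* and *Dtx1* as higher with purmorphamine in control and *Dner* in *Pparg-cKO* ureters. Apart from *Dner*, these genes and *Rbpj* were named after their values were seen. For *Dlk1* the male and female pairs differed widely, with log2 fold changes of -0.09 and -1.80 between the genotypes with DMSO in the limma values.

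**Figure D3:**
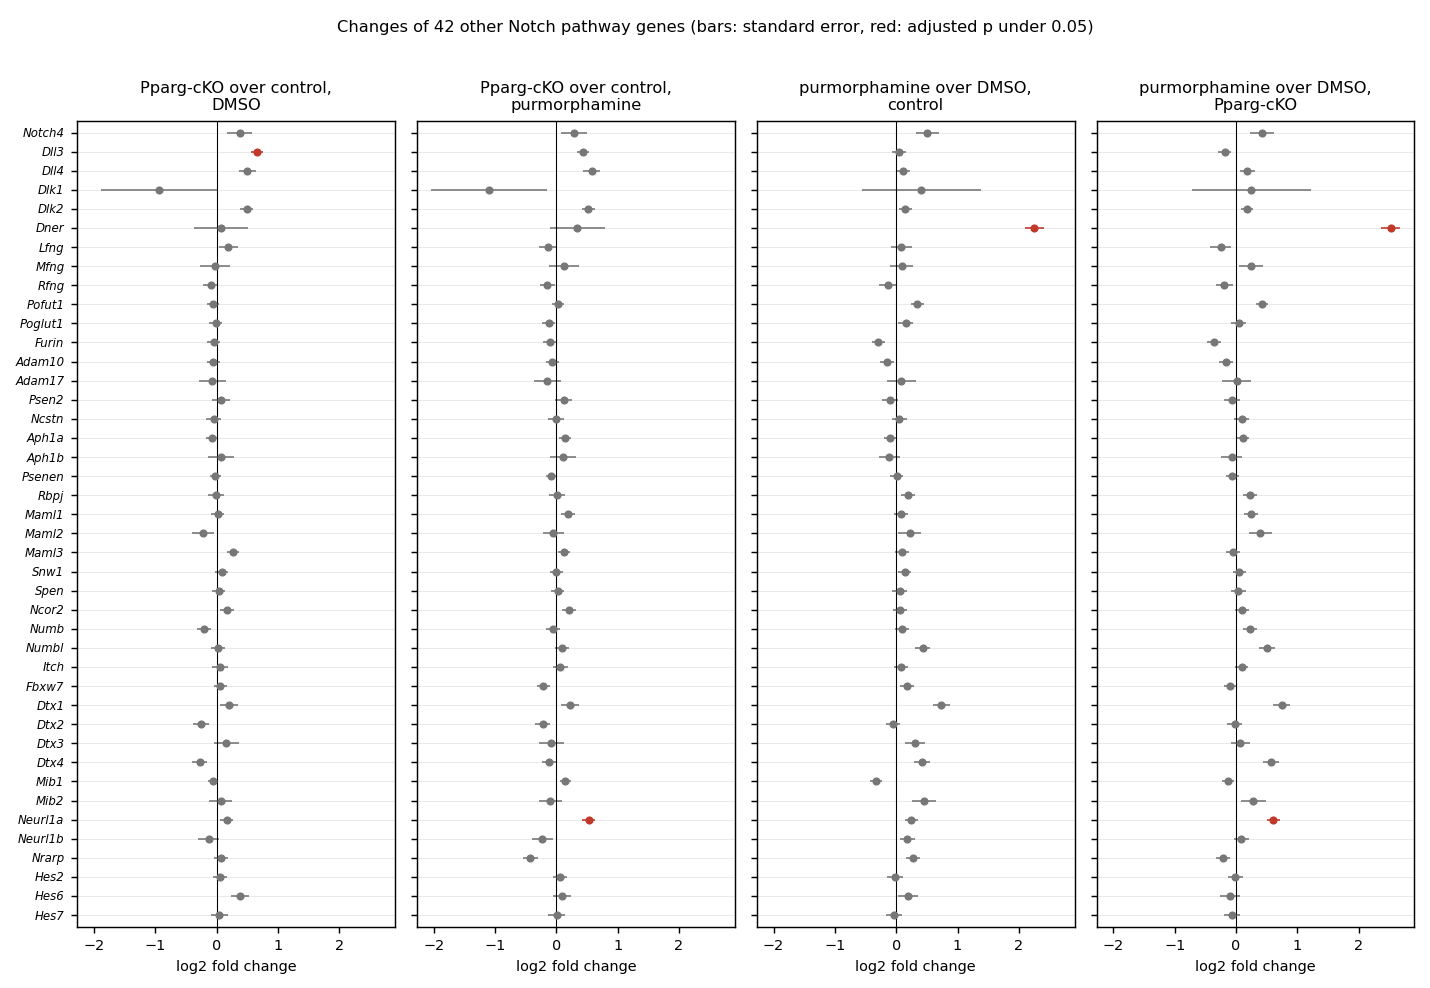
Log2 fold changes (x axis) of 42 of the 43 other tested genes of the Notch pathway (y axis) in 4 comparisons, with bars for the standard error and red for an adjusted p under 0.05 (limma). *Dner* stands out with purmorphamine at 2.25 and 2.52, *Dll3* is called between the genotypes with DMSO, and most other values lie near 0.

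Levels of marker genes of other cell types are given here beside those of *Hey1*, *Heyl* and *Notch3*. The levels of 8 endothelial markers were summed as intensities and the sum put on the log2 scale, so that bright probes weigh most. This log2 of the summed level was 13.34 to 13.97 in control pools with DMSO and 14.59 to 14.67 with purmorphamine. In *Pparg-cKO* pools it was 14.17 to 14.29 with DMSO and 15.10 to 15.26 with purmorphamine. Untreated controls were thus the lowest and treated mutants the highest group, as for *Heyl* and *Hey1*. The same held for the pericyte markers given below. The median log2 fold change of these markers was 0.60 and 0.56 between the genotypes with DMSO and purmorphamine, and 0.79 and 0.58 with purmorphamine in control and *Pparg-cKO* ureters. Of the 8, *Tek*, a receptor of angiopoietins, was called higher in control ureters (1.26, SE 0.15, limma, adjusted p = 0.040), and *Tek* (2.00, SE 0.15, adjusted p = 0.014) and *Cdh5*, the endothelial cadherin (1.25, SE 0.21, adjusted p = 0.042), in *Pparg-cKO* ureters. Between the genotypes *Kdr*, a receptor of VEGF, was called with DMSO (0.88, SE 0.16, adjusted p = 0.035), and 0 of the 8 with purmorphamine, where 5 of 8 were higher at an unadjusted p under 0.05, a threshold that 15.6% of all genes passed in either direction.

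For smooth muscle markers, 8 in number, the log2 of the summed level was 18.14 to 18.61 in control and 18.29 to 18.48 in *Pparg-cKO* pools with DMSO. With purmorphamine it was 19.08 to 19.09 and 19.09 to 19.34. The treated pools were thus above the untreated ones, while the untreated genotypes overlapped. The median log2 fold change with purmorphamine was 0.71 in control and 0.81 in *Pparg-cKO* ureters, with 7 of 8 at an unadjusted p under 0.05 and 0 of 8 called by limma in each, where 19.6% and 22.2% of all genes had such an unadjusted p. For pericyte markers, 5 in number, the log2 of the summed level was 15.05 to 15.15 in control and 15.26 to 15.35 in *Pparg-cKO* pools with DMSO. With purmorphamine these markers had values of 15.32 to 15.51 in control and 15.72 to 15.79 in *Pparg-cKO* pools. Their median log2 fold changes were -0.02 and 0.26 between the genotypes with DMSO and purmorphamine and 0.06 and 0.25 with purmorphamine in control and *Pparg-cKO* ureters. In control ureters *Pdgfrb* had a value of 0.61 (adjusted p = 0.079), while *Cspg4* (0.06), *Kcnj8* (-0.07) and *Rgs5* (-0.08) were near 0. Of the 5, *Pdgfrb* was called higher with purmorphamine in *Pparg-cKO* ureters (0.71, SE 0.11, limma, adjusted p = 0.037), and *Cspg4* lower between the genotypes with DMSO (-0.78, SE 0.11, adjusted p = 0.016). The 4 targets of SHH signaling had medians of 1.03 and 1.48 with purmorphamine. The log2 of their summed level was 14.29 to 14.82 in control and 14.16 to 14.38 in *Pparg-cKO* pools with DMSO. With purmorphamine it was 15.63 to 15.76 and 15.94 to 16.15. The part of these cell types and of SHH targets in the values of *Hey1*, *Heyl* and *Notch3* was not tested. In whole ureters, fewer or more cells of a type and less or more RNA per cell cannot be told apart.

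**Figure D4:**
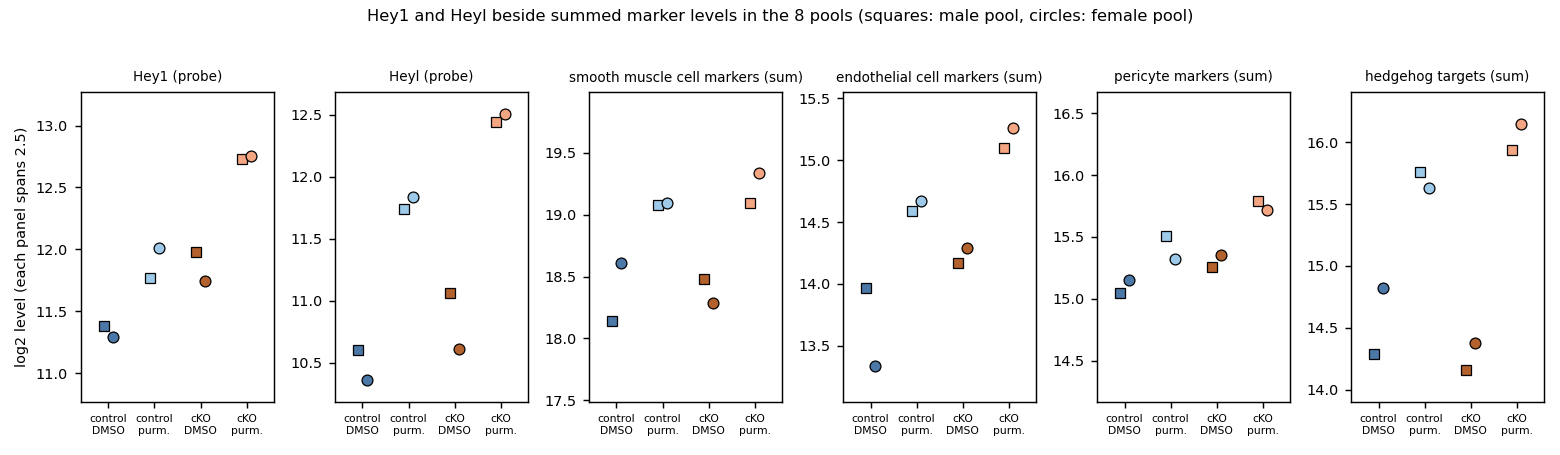
Log2 levels of the *Hey1* and *Heyl* probes and log2 of the summed levels of 3 marker lists and of the targets of SHH signaling (y axes, each spanning 2.5 log2 units) in the 4 groups of ureter pools (x axis), with squares for male and circles for female pools. The *Pparg-cKO* pools with purmorphamine hold the highest values for *Hey1*, *Heyl*, the endothelial markers (15.10 and 15.26) and the pericyte markers (15.72 and 15.79). They also do for the targets of SHH signaling (15.94 and 16.15). For the smooth muscle markers they lie at 19.09 and 19.34, against 19.08 and 19.09 in treated control pools.

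Levels of urothelial and other markers are given beside those of the ligands. The median log2 fold change of 6 superficial cell markers was -1.32 between the genotypes with DMSO. There 4 of 6 were called lower, against 3.90% of all genes called in either direction. With purmorphamine the median was -0.56, and 2 of 6 were called lower, against 3.14% of all genes. The 4 basal cell markers had medians of 0.28 and -0.20 between the genotypes, with single values of -0.51 to 1.27 and of -1.11 to 0.63. Of these 4, 0 were called with DMSO and 1 was called lower with purmorphamine, against the same shares of all genes. With purmorphamine the superficial markers had medians of 0.78 and 1.58 and the basal markers of -0.18 and -1.12 in control and *Pparg-cKO* ureters. Of the 6 superficial markers, 2 were called higher in control ureters, against 1.52% of all genes called in either direction. In *Pparg-cKO* ureters 5 of them were called higher, against 5.12% of all genes. Of the 4 basal markers, 1 was called lower with purmorphamine in each genotype, against 1.52% and 5.12% of all genes. The 6 general epithelial markers had medians of 0.01 and -0.09 between the genotypes and of -0.02 and -0.06 with purmorphamine. Ureteric mesenchyme markers, of which 6 were tested, had medians of 0.06 and 0.33 between the genotypes and of 0.47 and 0.48 with purmorphamine. For leukocyte markers, also 6, the medians were 0.01 and 0.07 between the genotypes and -0.56 and -0.47 with purmorphamine. The part of these cells in the values of the ligands was not tested.

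The genes whose log2 levels were most like those of the 3 called genes over the 8 pools were ranked by Pearson's r among 20228 genes. For *Heyl* these were *Tmem204* (0.992), *Gm10866* (0.991) and a transcript with no gene symbol (0.991). For *Hey1* they were *Tmem255a* (0.994), *4933412E12Rik* (0.990) and *Colgalt2* (0.988), and for *Dll1* they were *Mctp2* (0.988), *Shmt1* (0.984) and *Lrrc1* (0.983). The 8 pools of each correlation share 4 arrays and the normalization, and the values are a description without a test.

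Among the Notch genes themselves, the r furthest from 0 over the 8 pools was -0.98, of *Hey1* and *Dll1*. *Notch3* had an r of 0.95 with *Heyl*, 0.88 with *Hey1* and -0.82 with *Dll1*, and *Hey1* and *Heyl* had 0.91. These values are again a description, since the 4 groups set most of the spread.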

How the data were processed

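RNA from 8 sex-sorted pools of cultured ureters was measured on 4 two-color arrays (4 spots per probe, probe coordinates on mm9). Mean, local background and processed intensity of each spot come, per the file headers, from Agilent Feature Extraction (10.7.3.1 in the submitters' processing notes), which subtracted background and dye bias from the latter. The deposited log10 ratio is red over green and served to check the dyes. The deposited score of the series is a fold change with a sign, treated over untreated, per probe and array, whose scale and centring stay unknown. All 4 column medians were 1, and on the log2 scale Pearson's r with the processed ratio was 0.995 to 0.998.

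Mean intensities were corrected with normexp (offset 50), normalized by loess within arrays and, for the genotypes, Aquantile between arrays (limma 3.58.1 in R 4.3.3, files read with the data.table package, version 1.17.8). Genotypes were compared by a separate-channel fit (intraspot correlation 0.059 on 4000 probes), treatments by the log ratio within arrays. Of 39429 probes, the 27064 with signals well above background in each pool of any of the 4 groups were tested, the brightest standing for each of 20229 genes. Adjusted p are Benjamini-Hochberg values over these genes, and the fits were tested on simulated data. For the rule of the methods, processed intensities were scaled to a 75th percentile of 1500 with a floor of 15. The number of pools, 2 per group, limits the precision.

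Named are all 10 Notch genes, pathway genes called by limma or, where a comparison had none, the 3 with the largest change, *Ptch1*, *Gli1* and *Hhip*, and the 3 genes most like each called Notch gene. The Notch genes and all lists were chosen with earlier results of these data known. Alternatives were another offset, processed signals, no filter on dim probes, a replicate block, dye as a term, no normalization between arrays, the mean of a gene's probes and leaving out each array. A gene of the pathway list is counted but not reported here. The deposited table and a crossed block were chosen after seeing the data. Motifs were searched with Python 3.11.15 and figures drawn with matplotlib 3.10.9.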

Additional observations from a re-analysis of the deposited data

Results flagged for a closer look

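The effect of purmorphamine on *Jag2* was positive on both control arrays and negative on both *Pparg-cKO* arrays, and that on *Hes1* was negative on both control arrays and at or above 0 on the *Pparg-cKO* arrays. For *Jag2* the log2 fold changes were 0.36 and 0.12 on the male and female control arrays and -0.21 and -0.24 on the *Pparg-cKO* arrays, with a difference of -0.47 (*Pparg-cKO* minus control, limma interaction, adjusted p = 1). For *Hes1* they were -0.15 and -0.08 on the control arrays and 0.00 and 0.29 on the *Pparg-cKO* arrays, with a difference of 0.26 (adjusted p = 1). Neither difference passed the test.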

How the results depend on the processing

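Of 477 log2 fold changes of single Notch genes under the alternatives, 427 kept their direction and their side of the threshold, 28 kept their direction and lost the call, 3 kept their direction and gained one, and 19 changed sign. The 5 called values kept their sign under all 10 or 11 alternatives run for each, and their ranges were 0.67 to 0.97 (*Hey1* between the genotypes with purmorphamine, called under 3 of 11), -0.74 to -0.51 (*Dll1*, 4 of 11), 1.14 to 1.47 (*Heyl* in control ureters, 5 of 10), 0.75 to 1.00 (*Hey1* in *Pparg-cKO* ureters, 5 of 10) and 1.39 to 1.91 (*Heyl* in *Pparg-cKO* ureters, 7 of 10). The cause of the changes was not tested, apart from the smaller number of arrays where one was left out. There the lone array of a genotype is assumed to vary like the others, and the intraspot correlation of all arrays was used. With 2 pools per group the precision is low, and *Hey2* is limited by its signal over background.

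Between the genotypes with DMSO, where 0 Notch genes were called, 1 was called without the filter on dim probes, without normalization between arrays or with the mean of all probes of a gene, and of the other pathway genes (1 called) 0 were with dye as a term or the mean of all probes. Between the genotypes with purmorphamine (2 and 1 called), 0 and 0 were called with the processed signals or dye as a term, 1 and 0 without normalization between arrays, 0 other pathway genes with an offset of 16 or without the filter, and 0 to 0 Notch genes and 0 to 1 other pathway genes with each array left out. For purmorphamine in control ureters (1 and 1) the counts were 0 and 0 with the processed signals, without the filter and with the deposited table, and 0 to 1 and 0 to 1 with each array left out. For purmorphamine in *Pparg-cKO* ureters (2 and 2) they were 0 and 0 with the processed signals or the deposited table, 1 and 1 without the filter, 1 other pathway gene with an offset of 16, and 0 to 2 Notch genes with each array left out. By the rule of the methods with a fold threshold of 2, 0 of 2 Notch genes passed between the genotypes with purmorphamine and 1 of 2 with purmorphamine in *Pparg-cKO* ureters.

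Same-numbered pools of the genotypes share sex and dye but not animals. Their deviations had an r of -0.17 with DMSO and 0.48 with purmorphamine. The number was not taken as a pairing, although the r was positive with purmorphamine, where *Hey1* and *Dll1* were called. With a replicate block, 201 genes were called higher and 139 lower between the genotypes with DMSO, in place of 404 and 385, and 81 and 75 with purmorphamine, in place of 250 and 385. The replicate block left 0 Notch genes called between the genotypes with purmorphamine, 0 other pathway genes in either genotype comparison, and 1 other pathway gene for purmorphamine in *Pparg-cKO* ureters. With the numbers crossed in the block, chosen after seeing the data, 128 genes were called higher and 89 lower with DMSO, among them 0 Notch and 0 other pathway genes.

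Without normalization between arrays the median of all genes moved to -0.15 in both genotype comparisons, and 5 values changed sign relative to 0, which were *Jag2* (-0.10) and *Notch2* (-0.11) with DMSO and *Notch3* (-0.05), *Notch2* (-0.11) and *Hes1* (-0.15) with purmorphamine. With the mean of all probes *Notch2* (0.00) with DMSO, *Hes1* (-0.01) between the genotypes with purmorphamine, *Notch1* for purmorphamine in control ureters (-0.10) and the difference of *Notch1* (0.01) changed sign. With the deposited table the differences of *Notch3* (0.00) and *Notch2* (-0.06) did. With each array left out, sign changes were seen for *Notch2* (-0.01 to 0.19) and *Hes1* (-0.06 to 0.07) between the genotypes with purmorphamine, *Jag2* (-0.03 to 0.19) with DMSO, *Notch1* for purmorphamine in control ureters (-0.19 to 0.22) and the differences of *Notch2* (-0.08 to 0.09) and *Notch1* (-0.30 to 0.11).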
